A study of Mus musculus with 6 samples.

Results

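The transcription factor NF-kB was followed through 10 genes chosen by name. Of these, 5 encode its subunits (Nfkb1, Nfkb2, Rel, Rela and Relb). The other 5 are listed here as inhibitor genes (the IkB-type genes Nfkbia, Nfkbib, Nfkbie and Nfkbiz, and Tnfaip3, which encodes A20). Each of the 10 was read by 1 probe set. They were taken from 25123 probe sets with a gene symbol on Affymetrix Mouse Gene 1.0 ST arrays. The RNA came from mouse bone marrow cells (c-kit+) that had been transformed with MLL-AF9, and all 6 samples carry this leukemia fusion. The cells were transduced with the retroviral vector pMIG, which carries GFP (control, n = 3 arrays), or with pMIG-TGIF1 (n = 3 arrays, those labelled TGIF1 in what follows). They were sorted for GFP on day 3, kept for 1 day in medium and lysed. The labels give no age or strain and do not say whether the 3 arrays of a group came from separate transductions, so the p-values reflect the spread among these 6 arrays alone, and that spread may be technical.

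NF-kB is a family of dimers that share a DNA-binding Rel homology domain. In resting cells IkB proteins hold the dimers in the cytoplasm, and after signals from Toll-like, interleukin-1 or TNF receptors the IKK kinases mark IkB for destruction, so that dimers enter the nucleus. A separate route, through the kinase NIK, processes the Nfkb2 product p100 to p52 and releases dimers of p52 with RelB. Several inhibitors are themselves induced by NF-kB and so form feedback loops. In monocytes and macrophages the pathway is known for switching on cytokine and chemokine genes.

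Tgif1, the mouse gene named for the insert of the vector, went against the label. Intensities of 319.6, 376 and 408 in pMIG stood against 239, 239 and 258 in those labelled TGIF1, a 1.49-fold lower level (limma adjusted p = 0.00286). Whether its probes lie in the sequence that the vector carries was not tested, and each direction here rests on the labels. Of 10 myeloid and progenitor genes read as a check of the labelled cells, 0 were dimmer than the median probe set, 2 rose and 4 fell. Ptprc and Lyz2 rose (1.55-fold and 1.41-fold). Lower in the arrays labelled TGIF1 were Meis1 (2.19-fold), Mpo (1.88-fold), Hoxa9 (1.83-fold) and Kit (1.32-fold). B cell markers were dim, with 7 of 8 below that median and summed intensities of 292 to 296 in pMIG, against 286 to 301 in the other arrays. Monocyte and macrophage markers moved with the groups. By limma 11 of 14 rose and 1 fell, and their summed intensity was 13861 to 15937 in pMIG, against 35312 to 41018 in the other group. Of the other lists, 4 of 10 neutrophil markers rose and 1 fell (10758 to 12883 against 13879 to 14875). Of the megakaryocyte markers 3 of 8 rose (423 to 510 against 2856 to 4384). Of the T and NK cell markers 3 of 9 rose, and of the erythroid markers 1 of 7. Of the mast cell markers 1 of 8 fell, and of the stromal and endothelial markers 1 of 8. Over all probe sets 11.5% were called higher and 13.2% lower. Dimmer than the median probe set were 8 of 9 T and NK cell, 7 of 7 erythroid and 5 of 8 megakaryocyte markers. So were 6 of 8 mast cell and 6 of 8 stromal and endothelial markers. The part of these marker changes in the results was not tested. In bulk RNA a change in the share of cells of a type cannot be told apart from a change per cell. Array pMIG-TGIF1 replicate 3 had the lowest limma weight (0.56), and the weights of the other arrays were 0.98 to 1.52.

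The NF-kB genes did not move as a block. By limma, at a Benjamini-Hochberg adjusted p under 0.05, 3 of the 10 rose (Nfkbiz, Nfkbia and Relb), 2 fell (Nfkb2 and Rel) and 5 did not pass. Over all probe sets 24.7% were called, 11.5% as higher and 13.2% as lower, beside 5 calls among the 10 genes. Calls were more common among brighter probe sets. With the dimmest 50% left out, 2350 of 12562 were called higher and 3408 lower. The 10 genes stayed in, with the same 3 and 2 calls. Leaving out pMIG replicate 1 left 1 call higher and 1 lower. Leaving out pMIG replicate 3 or pMIG-TGIF1 replicate 2 left 0 lower (2 and 3 at an unadjusted p under 0.05), and leaving out pMIG replicate 2 or pMIG-TGIF1 replicate 3 left 1 lower. The median log2 difference of the 10 genes was 0.03, against 0.010 over all probe sets. A single gene, Nfkbiz, changed by more than 1.5-fold. In 6 of the 10 the arrays of the groups did not overlap, where the background was 38.4% of all probe sets, dim ones included. That share was not taken for brighter probe sets alone. The mean intensity of each of the 10 lay above the 54th percentile of probe sets, and a filter on dim probe sets would drop none of them.

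**Figure D1:**
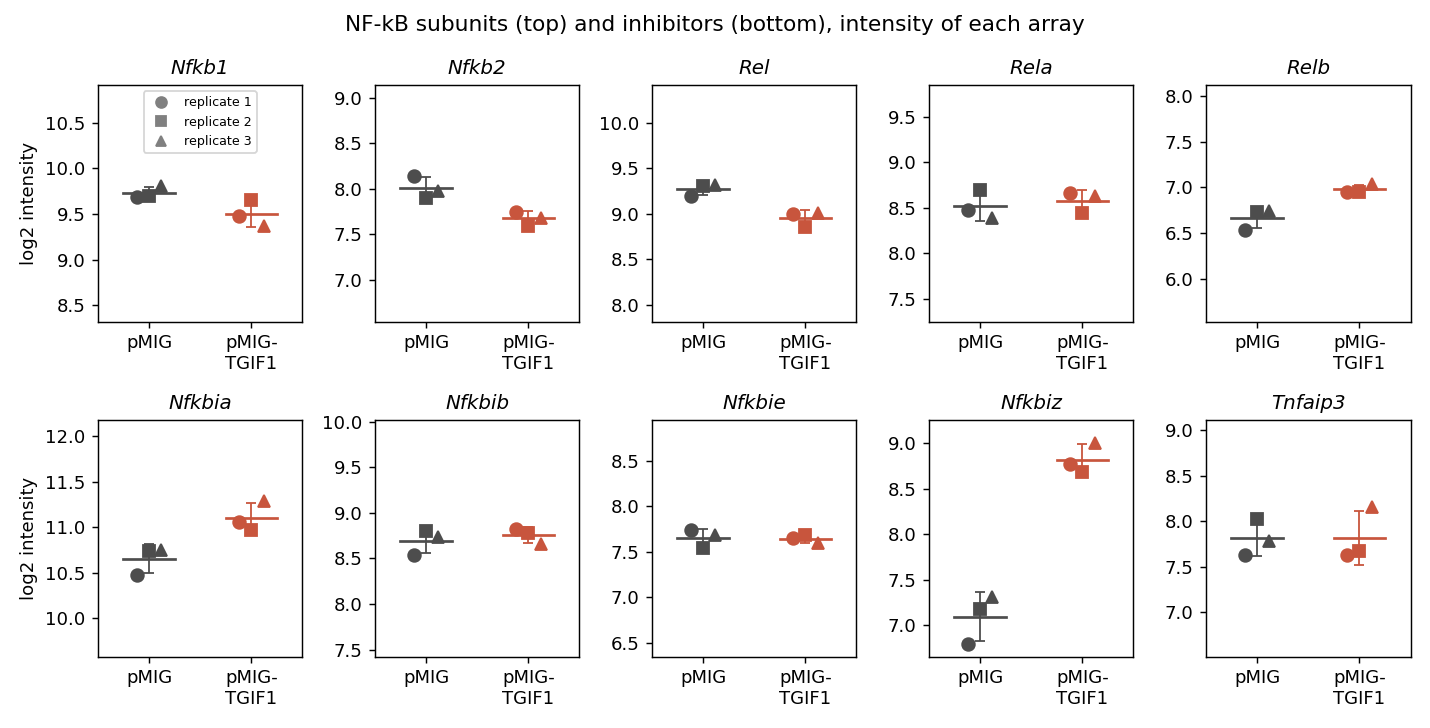
Log2 intensity of each array (y axis, log scale, same span in every panel) for the 5 subunit genes (top) and the 5 inhibitor genes (bottom), with pMIG in grey and pMIG-TGIF1 in red. Symbols mark the replicate number, the horizontal line is the mean and the bar is the SD of 3 arrays; the wide gap is that of Nfkbiz, and the groups overlap for Rela, Nfkbib, Nfkbie and Tnfaip3.

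Nfkbiz, which encodes the nuclear protein IkB-zeta, an inducible cofactor known from mouse macrophages to be needed for full expression of Il6 and other secondary response genes, had the steepest rise among the 10. Its probe set (10439936) read 111, 145 and 158 in pMIG, against 436, 409.9 and 513 in those labelled TGIF1. Every array of the second group lay far above every array of the first, and the groups did not come near each other. The level was 3.30-fold higher (95% CI 2.65 to 4.10), a log2 difference of 1.72 ± 0.14 (SE, n = 3 and 3, limma adjusted p = 1.63e-05). Of all probe sets 0.82% rose by more. By an exact permutation test (two-sided) p was 0.1, and 3 arrays against 3 cannot give less.

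Nfkbia encodes IkB-alpha, the inhibitor that holds the RelA dimers in the cytoplasm and is rapidly resynthesized under NF-kB control. Its probe set (10400405) read 1419.8, 1711 and 1718 in pMIG, against 2132, 2010.5 and 2495 in those labelled TGIF1. The groups did not overlap, but the lowest array of the second stood close above the 2 higher arrays of the first. The rise was 1.37-fold (95% CI 1.14 to 1.64), a log2 difference of 0.45 ± 0.12 (SE, limma adjusted p = 0.0162). The call was lost without pMIG replicate 1, the lowest array (0.36, limma adjusted p = 0.0711), and without moderation (0.45, limma adjusted p = 0.106). Within arrays the log2 ratio of Nfkbiz over Nfkbia was -3.56 ± 0.12 (SD, n = 3) in pMIG and -2.29 ± 0.0061 (SD, n = 3) in the other group, without overlap. This pair was chosen after its values were seen and the ratio is a description of unequal change.

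Nfkbib and Nfkbie encode IkB-beta and IkB-epsilon, the other cytoplasmic IkB proteins. Nfkbib (10561516) read 372, 446 and 426 in pMIG, against 452, 440.2 and 403 in those labelled TGIF1. Nfkbie (10445412) read 213, 187 and 206 in pMIG, against 202, 206 and 194 in the other group. For both genes the arrays of the groups were interleaved. The log2 difference of Nfkbib was 0.061 (95% CI -0.17 to 0.29, limma adjusted p = 0.750), and that of Nfkbie was -0.011 (95% CI -0.22 to 0.20, limma adjusted p = 0.955). The intervals leave room for a rise of up to 1.22-fold for Nfkbib and 1.15-fold for Nfkbie. The sign of the difference turned with the setting for both, to -0.047 for Nfkbib with each array centred on its median and to 0.024 for Nfkbie with renewed quantile normalization.

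Tnfaip3 encodes A20, a ubiquitin-editing enzyme that shuts off signalling from TNF and Toll-like receptors and is a classical NF-kB target. Its probe set (10368144) read 199, 259.9 and 221 in pMIG, against 198, 204 and 285 in those labelled TGIF1. The spread within each group was wide, and the highest of the 6 arrays and the lowest were both in the second group. The log2 difference was 0.0038 (95% CI -0.34 to 0.34, limma adjusted p = 0.992), an interval that holds levels up to 1.27-fold higher and 1.26-fold lower. Without pMIG-TGIF1 replicate 3, the highest array, it was -0.17 (limma adjusted p = 0.421). Among the 5 genes of the inhibitor list, limma thus called 2 higher and 0 lower, beside 11.5% and 13.2% of all probe sets. At an unadjusted p under 0.05 the number lower was also 0. Counts among 5 genes are too small to set against these shares. The 2 called higher were Nfkbia and Nfkbiz, and the product of Nfkbiz is described above as a cofactor.

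Rel and Nfkb2 were the subunit genes called lower. Rel encodes c-Rel, a subunit with a transactivation domain that is most abundant in blood cells. Its probe set (10384725) read 588, 631 and 639 in pMIG, against 512, 461 and 516 in those labelled TGIF1, and the groups stood apart. The level was 1.25-fold lower (95% CI 1.08 to 1.44), a log2 difference of -0.32 ± 0.09 (SE, limma adjusted p = 0.0292). Leaving out pMIG-TGIF1 replicate 2 (-0.27, limma adjusted p = 0.0931), or replicate 2 (-0.31, 0.0906) or 3 (-0.30, 0.105) of pMIG, ended the call, and so did renewed quantile normalization (-0.24, 0.0965).

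Nfkb2 encodes p100, the precursor of p52, which also acts as an inhibitor until it is processed. Its probe set (10463599) read 283, 238 and 251 in pMIG, against 215, 194 and 205 in those labelled TGIF1. All arrays of the second group were below those of the first, with pMIG replicate 1 the highest of the 6. The level was 1.25-fold lower (95% CI 1.08 to 1.46), a log2 difference of -0.33 ± 0.10 (SE, limma adjusted p = 0.0356). Leaving out replicate 1 (-0.26, limma adjusted p = 0.138) or 3 (-0.34, 0.0826) of pMIG, or replicate 2 (-0.29, 0.104) or 3 (-0.33, 0.0604) of the other group, ended the call, and so did renewed quantile normalization (-0.29, 0.0720).

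Relb, which encodes the partner of p52 in the dimer of the NIK route, was called higher. Its probe set (10560575) read 92.8, 106 and 107 in pMIG, against 124, 124 and 131 in those labelled TGIF1, without overlap. The rise was 1.24-fold (95% CI 1.07 to 1.44), a log2 difference of 0.31 ± 0.10 (SE, limma adjusted p = 0.0379). This call was the most fragile of the 5. Leaving out any 1 of the 6 arrays ended it (log2 0.24 to 0.35, limma adjusted p = 0.0628 to 0.144), as did renewed quantile normalization (0.26, 0.0775), array median centring (0.20, 0.156) and the intensity trend and robust prior (0.31, 0.0563). The log2 ratio of Relb over Nfkb2 within arrays went from -1.33 ± 0.24 (SD, n = 3) in pMIG to -0.70 ± 0.09 (SD, n = 3) in the other group, without overlap, a pair again chosen after its values were seen.

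Nfkb1 encodes p105, the precursor of the DNA-binding subunit p50. Its probe set (10502299) read 827, 831 and 893 in pMIG, against 715, 805 and 663 in those labelled TGIF1. The groups did not overlap, though pMIG-TGIF1 replicate 2 came close to the lower pMIG arrays. The log2 difference was -0.23 ± 0.10 (SE, 95% CI -0.45 to -0.0039), which missed the threshold (limma adjusted p = 0.140). With each array centred on its median it was called lower (-0.34, limma adjusted p = 0.0357).

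Rela encodes p65, the main transactivating subunit of the canonical dimer. Its probe set (10460631) read 356, 414 and 335 in pMIG, against 405, 349 and 396 in those labelled TGIF1, with the groups interleaved. The log2 difference was 0.061 (95% CI -0.18 to 0.31, limma adjusted p = 0.772), and -0.047 with array median centring. The upper end of the interval corresponds to a rise of 1.24-fold. Of the 5 subunit genes limma therefore called 1 higher and 2 lower, with a median log2 difference of -0.23. Over all probe sets 11.5% were called higher and 13.2% lower, and counts among 5 genes are too small to set against these shares. With array median centring the 10 genes split into 2 called higher and 3 lower, against 3 and 2 without it. The same centring moved the median of all probe sets from 0.010 to -0.097 and left 30.9% of calls in the higher direction, against 46.6% without it.

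**Figure D2:**
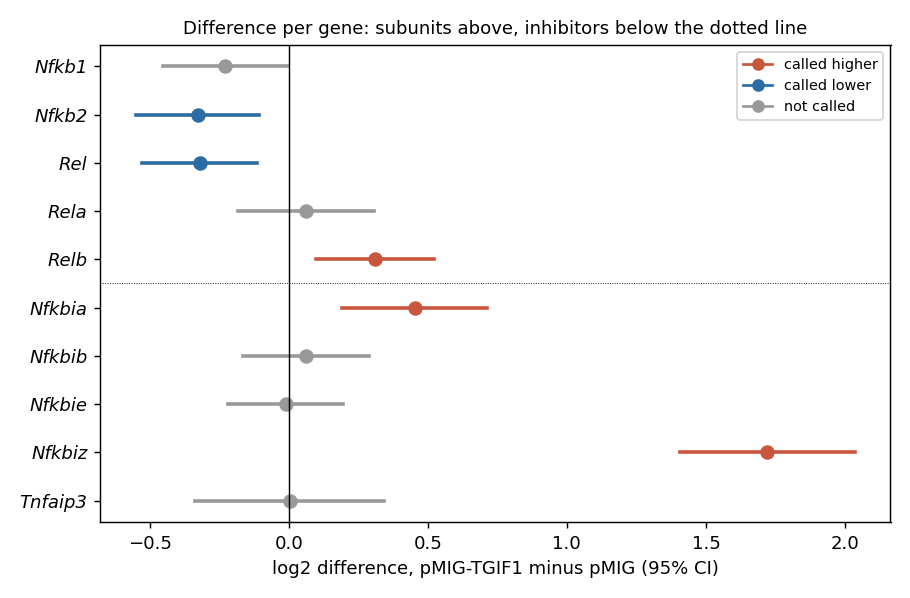
Log2 difference of pMIG-TGIF1 minus pMIG (x axis, points) with its 95% confidence interval from limma (lines) for each gene, n = 3 and 3 arrays. Nfkbiz at 1.72 stands apart from the other 9, which lie between -0.33 and 0.45.

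The authors' deposited table gives signed fold changes of 3.30 for Nfkbiz, 1.37 for Nfkbia, 1.24 for Relb and -1.25 for both Rel and Nfkb2. Its p-values, whose test the sources used here do not name, are 0.03 for Nfkbia, 0.01 for Relb and Rel, 0.02 for Nfkb2 and 0.06 for Nfkb1 in the authors' deposited table.

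The order of the arrays within a group was shared by some of the genes and not by others. Among the pMIG arrays, replicate 1 held the lowest value of 7 of the 10 genes (Nfkb1, Rel, Relb, Nfkbia, Nfkbib, Nfkbiz and Tnfaip3) and the highest of 2 (Nfkb2 and Nfkbie). Among the arrays labelled pMIG-TGIF1, replicate 3 held the highest value of 5 genes (Rel, Relb, Nfkbia, Nfkbiz and Tnfaip3) and the lowest of 3 (Nfkb1, Nfkbib and Nfkbie). Replicate 2 held the lowest of 6 and the highest of 2 (Nfkb1 and Nfkbie). Nfkbiz was 1.57 without pMIG replicate 1 and 1.63 without pMIG-TGIF1 replicate 3 on the log2 scale, and was called in both. These array differences are a description of 6 samples and were not tested.

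Genes were ranked by the likeness of their log2 intensity to that of Nfkbia over the 6 arrays, with predicted genes and clone-type names left out. Among the rest the closest were Spint2, a serine protease inhibitor (Pearson r = 0.997), Cmbl, a hydrolase (0.996), Lix1l (0.995) and Iyd, an iodotyrosine deiodinase (0.994). Spint2 read 553, 663 and 693 in pMIG, against 891, 842 and 1071 in those labelled TGIF1, and its 6 arrays stood in the same order as those of Nfkbia. The 6 points fall into 2 groups, so any gene with a like difference between the groups correlates, and no test was made.

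Promoter sequences were read because Nfkbia, Tnfaip3, Rel and Nfkb2 are known targets of NF-kB itself and differed in their calls here. RefSeq windows of 300 bases on mouse build GRCm38.p6, 250 before to 50 after a start of transcription, were found for 7 of the 10 genes (10 windows, with Nfkb2 and Tnfaip3 having several starts); Nfkb1, Relb and Nfkbiz were not matched. They were searched on both strands for the 10-base NF-kB consensus of 3 G, a purine, any base, 3 pyrimidines and 2 C. At least 1 match stood in a window of Nfkbia, Tnfaip3, Rel and Nfkb2, and none in those of Rela, Nfkbib and Nfkbie. Of all 32851 windows 5.80% hold a match, and of 27025 genes 6.55%. The last 130 bases before the start are given 5′ to 3′ on the strand of the gene for these 4 genes and for the targets Il6 and Cxcl10, with the matches in capitals (the first start of Nfkb2 and the start of Tnfaip3 that has a match). They lie at chr12:55492648-55492777 (minus strand) for Nfkbia, chr10:19015411-19015540 (minus) for Tnfaip3, chr11:23770970-23771099 (minus) for Rel and chr19:46304607-46304736 (plus) for Nfkb2. The stretch of Il6 is chr5:30012984-30013113 (plus) and that of Cxcl10 chr5:92348890-92349019 (minus).
Nfkbia: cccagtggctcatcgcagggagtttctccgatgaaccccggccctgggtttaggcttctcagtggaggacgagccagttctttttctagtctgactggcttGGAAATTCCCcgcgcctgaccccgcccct
Tnfaip3: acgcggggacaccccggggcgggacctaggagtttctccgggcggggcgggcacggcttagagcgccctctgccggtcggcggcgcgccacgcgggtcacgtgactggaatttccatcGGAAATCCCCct
Rel: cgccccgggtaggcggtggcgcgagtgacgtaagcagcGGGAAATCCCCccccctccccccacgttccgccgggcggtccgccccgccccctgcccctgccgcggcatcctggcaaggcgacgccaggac
Nfkb2: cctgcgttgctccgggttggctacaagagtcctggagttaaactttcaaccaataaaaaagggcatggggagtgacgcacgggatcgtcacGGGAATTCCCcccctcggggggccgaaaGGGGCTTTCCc
Il6: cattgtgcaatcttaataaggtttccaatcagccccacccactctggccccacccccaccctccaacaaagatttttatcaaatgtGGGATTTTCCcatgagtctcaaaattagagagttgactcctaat
Cxcl10: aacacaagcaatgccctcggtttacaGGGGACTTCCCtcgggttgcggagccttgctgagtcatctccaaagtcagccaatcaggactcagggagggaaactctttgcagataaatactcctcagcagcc
The single match of Nfkbia ran from base -29 to -20, counted from -1 just before the start, and that of Tnfaip3 from -12 to -3. In Rel a pair of overlapping matches covered -92 to -82. The matches of Nfkbia, Tnfaip3 and Rel are on the other strand, so their capitals show the consensus as its reverse complement. The first window of Nfkb2 held a match on both strands at -39 to -30 and another at -11 to -2. Among these 4 genes with a match, Nfkbia rose 1.37-fold, Rel and Nfkb2 were 1.25-fold lower, and Tnfaip3 gave a log2 difference of 0.0038. Il6, called higher, and Cxcl10, called lower, both hold a match. A match is a run of letters and not a measured binding site.

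**Figure D3:**
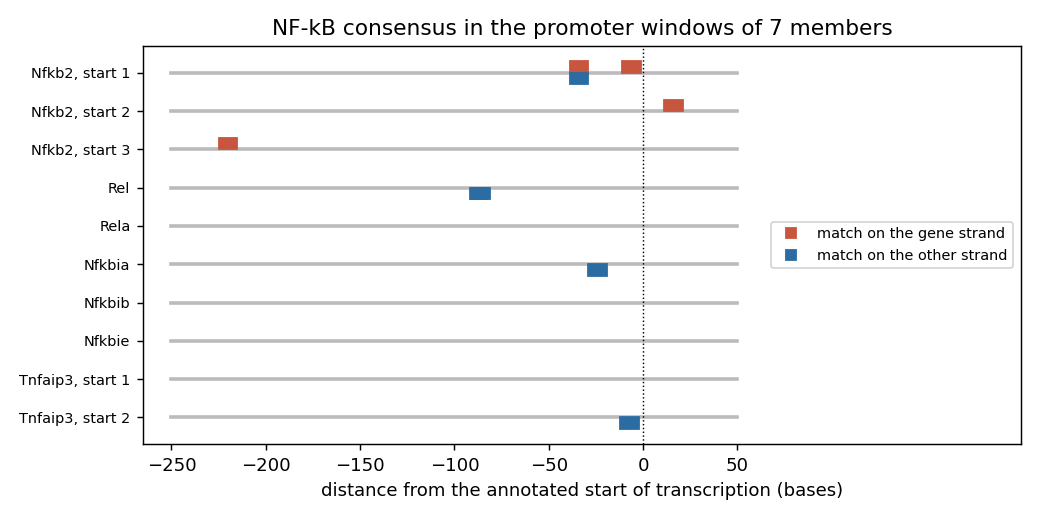
Position of matches to the NF-kB consensus (boxes, 10 bases each) in the 10 promoter windows of 7 genes, against the distance in bases from the annotated start (dotted line). Boxes above a line are on the gene strand and boxes below on the other strand; Rela, Nfkbib, Nfkbie and the first start of Tnfaip3 have none.

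The genes around the 10 were read through 4 lists of the pathway, chosen with earlier results of these data known. The shares are a description, taken over 113 measured genes in all. Limma called 43 of them higher and 12 lower (38.1% and 10.6%, beside 11.5% and 13.2% of all probe sets), and with array median centring 39 and 18. The shares of all probe sets take in the dim ones, among which calls were less common. The share called higher was 56.4% among target genes, 42.1% among receptors, 23.7% among kinases and adaptors and 23.5% among the other IkB and feedback genes. The median log2 difference was 0.77 for targets, 0.28 for receptors, 0.074 for kinases and adaptors and 0.036 for the other IkB and feedback genes. Beside them stand the medians of -0.23 for the subunit genes and 0.061 for the inhibitor genes. With array median centring 3 of the 6 medians turned negative, to -0.034 for kinases and adaptors, -0.072 for the other IkB and feedback genes and -0.047 for the inhibitor genes.

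**Figure D4:**
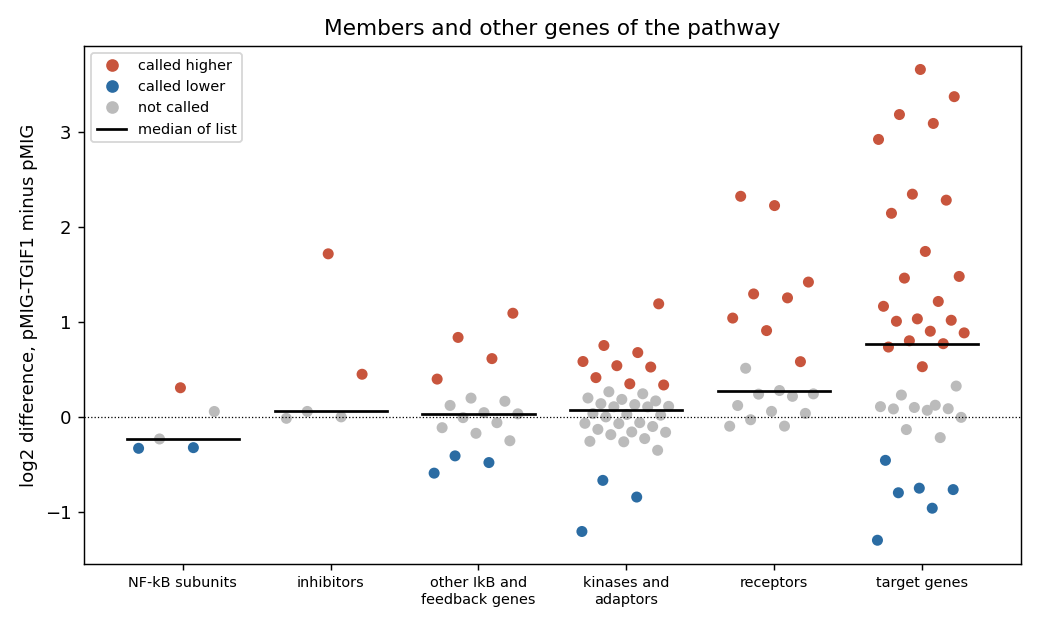
Log2 difference of pMIG-TGIF1 minus pMIG (y axis) for each gene of the 2 member lists and the 4 pathway lists, coloured by the limma call, with the median of each list as a line. Differences above 2 occur among the receptors and target genes, while the subunit genes stay between -0.33 and 0.31.

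Receptors upstream of NF-kB rose or did not pass. Of 19 measured, 8 were called higher and 0 lower by limma (0 lower also at an unadjusted p under 0.05). The parts of the lipopolysaccharide receptor rose together. Its coreceptor Cd14 rose 5.02-fold (95% CI 4.09 to 6.16), its partner Ly96, which encodes MD-2, 4.69-fold (95% CI 3.74 to 5.88) and the signalling receptor Tlr4 2.68-fold (95% CI 2.31 to 3.12). Tlr7, an endosomal receptor of single-stranded RNA, rose 2.39-fold (95% CI 1.93 to 2.97). These 4 had limma adjusted p-values between 1.53e-06 and 0.00011. Tlr2 did not pass (log2 0.52, limma adjusted p = 0.153). It read 1281 and 1330 in replicates 1 and 2 labelled TGIF1 but 631 in replicate 3, and without that array it was called (0.87, limma adjusted p = 0.00015). The monocyte and macrophage markers, with Cd14 among them, moved the same way, and their part was not tested.

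Among 38 kinases and adaptors 9 rose and 3 fell, and the core IKK complex was not among them. With array median centring the counts were 7 and 7, and without moderation 5 and 4. The catalytic subunits Ikbkb and Chuk and the scaffold Ikbkg differed by 0.038, 0.0036 and -0.13 on the log2 scale (limma adjusted p = 0.416 to 0.987). Map3k8, which encodes TPL2, a kinase held by p105 and released on signalling, read 146, 169 and 145 in pMIG, against 344, 331 and 378 in those labelled TGIF1, a 2.29-fold rise (95% CI 1.96 to 2.68, limma adjusted p = 2.09e-05). Card9, the adaptor of Dectin-type receptors, read 913, 815 and 889 in pMIG, against 359, 429 and 351 in the other group, a 2.30-fold lower level (95% CI 1.95 to 2.71, limma adjusted p = 2.63e-05). Both genes had groups that stood far apart.

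The complex that keeps NIK at a low level, made of TRAF2, TRAF3 and the cIAP ubiquitin ligases, moved in both directions. Traf2 was 1.79-fold lower (95% CI 1.52 to 2.11, limma adjusted p = 0.000248) and Traf3 1.59-fold lower (95% CI 1.38 to 1.82, limma adjusted p = 0.000385). The ligase genes rose, Birc3 by 1.69-fold (95% CI 1.31 to 2.18, limma adjusted p = 0.00650) and Birc2 by 1.28-fold (95% CI 1.09 to 1.49, limma adjusted p = 0.0273). The call of Birc2, which has 2 probe sets of which the brighter was used, was lost on leaving out any array except pMIG-TGIF1 replicate 1 (log2 0.29 to 0.37, limma adjusted p = 0.0631 to 0.0901) and with array median centring (0.24, 0.102). Map3k14, which encodes NIK, read 130.5, 130 and 129 in pMIG, against 111, 102 and 114 in those labelled TGIF1, a log2 difference of -0.25 that missed the threshold (limma adjusted p = 0.066). It was called lower under 6 of 18 alternatives, among them array median centring (-0.36, limma adjusted p = 0.0111) and renewed quantile normalization (-0.30, 0.0305). Birc2, Birc3 and Map3k14 were chosen after their values were seen.

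Of 17 other IkB-type and feedback genes 4 rose and 3 fell (23.5% and 17.6%, beside 11.5% and 13.2% of all probe sets). With the dimmest 50% of probe sets left out all 17 stayed in, with the same 4 and 3 calls. Of 12562 probe sets 2350 were then called higher and 3408 lower. With array median centring the counts of the 17 genes were 3 and 4. Tnip3, called higher, had overlapping groups (limma adjusted p = 0.0426) and was called in 9 of 18 alternatives. Tax1bp1, called lower, was called in 12 of the 18. Bcl3, a nuclear IkB protein that binds p50 and p52 dimers, read 145, 159 and 165 in pMIG, against 364, 289 and 354 in those labelled TGIF1. The groups did not overlap, and the rise was 2.14-fold (95% CI 1.80 to 2.54, limma adjusted p = 6.61e-05). N4bp1, an inhibitor of signalling from several of these receptors, rose 1.79-fold (95% CI 1.56 to 2.06, limma adjusted p = 8.71e-05). Cyld, a deubiquitinase that opposes IKK activation, fell by 0.59 on the log2 scale (a fold with a 95% CI of 1.29 to 1.75, limma adjusted p = 0.00146), and Irak3, an inhibitor of Toll-like receptor signalling in macrophages, was 1.39-fold lower (95% CI 1.18 to 1.64, limma adjusted p = 0.00771). Another nuclear IkB gene, Nfkbid, differed by 0.12 (limma adjusted p = 0.535).

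Of 39 target genes 22 rose (56.4%, beside 11.5% of all probe sets) and 6 fell (15.4%, beside 13.2%, a share near the background). With the dimmest 50% of probe sets left out, 20 of 31 targets rose and 6 fell, beside 2350 and 3408 of 12562 probe sets. The list was chosen with earlier results of these data known, so its shares are a description and were not tested. It counts the near-identical paralogs Bcl2a1a, Bcl2a1b and Bcl2a1d separately. The 4 targets with the smallest p all rose. The inducible cyclooxygenase Ptgs2 read 69.4, 75.0 and 81.0 in pMIG, against 954, 691 and 1300 in those labelled TGIF1, a 12.7-fold rise (95% CI 9.47 to 16.9, limma adjusted p = 8.04e-07). The cytokine Il6 read 12.7, 13.3 and 13.9 in pMIG, against 92.0, 132 and 146 in the other group (log2 difference 3.19, limma adjusted p = 5.41e-07). The pMIG values of Il6 are near the low end of the arrays, whose lowest intensity is 6.02, so the size of its rise is poorly set, and it was 2.23 with an offset of 16 added to every intensity. The monocyte chemokine Ccl2 rose 7.60-fold (95% CI 6.06 to 9.53) and Csf1, the macrophage growth factor, 4.88-fold (95% CI 4.18 to 5.69). Each of the 4 had groups that lay far apart. The part of the monocyte and macrophage markers, whose summed intensities are given above, was not tested here either.

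The 6 targets called lower were Fas, a death receptor (2.46-fold), Cxcl10, a chemokine also driven by interferon (1.94-fold), Sod2, the mitochondrial superoxide dismutase (1.74-fold), Icam1, an adhesion molecule (1.70-fold), Gadd45b, a stress sensor (1.68-fold), and Slc2a6, a sugar transporter (1.37-fold), with limma adjusted p = 0.000154 to 0.00788. Icam1 read 301, 298 and 308 in pMIG, against 192, 176 and 167 in those labelled TGIF1. Its groups were tight and far apart. The near-identical paralogs Bcl2a1a, Bcl2a1b and Bcl2a1d were all called higher (1.67-fold to 1.87-fold), and their probes may share signal. Of 29 measured targets with a promoter window, the consensus was matched in 4 of 17 called higher, 2 of 6 called lower and 3 of 6 that did not pass.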

How the data were processed

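The authors deposited linear intensities, 1 per probe set and array, made by RMA with Partek per the submitters' processing notes (no versions or settings given). Beside them the authors' deposited table lists signed fold changes and p-values (2 decimals). For 100% of probe sets the deposited fold equalled the difference of mean log2 intensities within 0.001. Both tables hold equal intensities (28853 probe sets, largest difference 0), and 3730 probe sets with no symbol were dropped.

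Intensities were log2 transformed and fitted over all 6 arrays, unfiltered, by lmFit and eBayes of limma 3.58.1 under R 4.3.3, as pMIG-TGIF1 minus pMIG. P-values were adjusted by Benjamini-Hochberg over 25123 probe sets, and calls were made at 0.05. SE and CI come from the moderated fit. The fit was tested on simulated data. Number of arrays limits the precision. Members were found by the deposited symbol and pathway genes by symbols updated through RefSeq names, with the brightest probe set where a gene had several (Tlr5 was not matched). The members, lists and markers were chosen with earlier results of these data known. Named were all members, the 4 genes with the smallest p of each pathway list, the 4 most like Nfkbia, and examples chosen after their values were seen. Alternatives were the replicate number as a block, the prior, moderation, normalization, scaling, filters, an offset of 16, and leaving out each array. The other deposited table, with equal intensities, was fitted as a further alternative and repeats the main fit. The replicate numbers were not taken as pairs, since same-numbered arrays did not deviate together (correlations -0.19, -0.11 and -0.049).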

Additional observations from a re-analysis of the deposited data

How the results depend on the processing

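Each of the 10 genes was fitted under 18 alternatives, 6 of which left out an array. Another 1 read the other deposited table, whose intensities are equal. It repeats the main fit by construction and adds 1 unchanged result to each count out of 18. Nfkbiz was called higher in all 18 (log2 1.57 to 1.83, limma adjusted p = 4.65e-06 to 0.0168), and Nfkbia in 16 (0.34 to 0.52). Rel was called lower in 12, Nfkb2 in 11 and Relb higher in 7. The number of members called higher, 3, became 1 without moderation (2 called lower and 3 higher at an unadjusted p under 0.05) and ranged from 1 to 2 on leaving out an array. The number called lower, 2, became 0 with the replicate block, 0 without moderation and 0 with renewed quantile normalization (2 at an unadjusted p under 0.05 in each), and ranged from 0 to 2 on leaving out an array. The replicate block moved the calls over all probe sets from 6200 to 5536, and the ordinary model without moderation made 3401. With the block Rel, Nfkb2 and Relb lost their calls (limma adjusted p = 0.0674, 0.0530 and 0.0703). The labels do not say whether the replicate numbers mark pairs. Pathway genes called higher ranged from 33 to 44 and called lower from 9 to 18 with all arrays. Differences near 0 changed sign: with array median centring Nfkbib and Rela went to -0.047, Tnfaip3 to -0.10, Chuk to -0.10 and Ikbkb to -0.070, with renewed quantile normalization Nfkbie went to 0.024, and with array weights Tnfaip3 to -0.047. On leaving out an array Nfkbib ranged from -0.014 to 0.12, Nfkbie from -0.067 to 0.029, Rela from -0.0051 to 0.15, Tnfaip3 from -0.17 to 0.11 and Chuk from -0.066 to 0.045. Without moderation the members Nfkbia, Nfkb2, Rel and Relb lost their calls (limma adjusted p = 0.0532 to 0.106). Among the named pathway genes Irak3, Birc3, Cxcl10 and Slc2a6 lost theirs (limma adjusted p = 0.0553 to 0.116). So did Birc2, Tax1bp1 and Tnip3 (limma adjusted p = 0.0835, 0.168 and 0.250). The causes were not tested. The files hold no detection calls, and the number of arrays limits the precision.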
